A study of Mus musculus with 6 samples.

Results

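The 44 genes described here encode parts of the motile cilium or mark the cells that carry it. They were chosen by symbol, from a list of axonemal dynein, radial spoke, central pair and ciliogenesis genes, in a table of 54838 mouse genes counted in hippocampus. All 44 were found in the table, and each was among the 19087 genes with enough counts to be tested. Motile cilia are built on an axoneme of doublet microtubules around a central pair. Dynein arms slide the doublets, and radial spokes, the nexin link and the central pair apparatus set the bend. In the brain these cilia belong to the ependyma, which lines the ventricles and moves cerebrospinal fluid, and to the epithelium of the choroid plexus, which secretes it. Neurons and astrocytes carry a primary cilium instead, which has neither dynein arms nor a central pair. Foxj1 and the RFX factors switch on the genes of the motile axoneme.

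The libraries compared wild-type females with females of the transgenic line that the labels name FVB/NJ-Tg(Orai1)Ibd. ORAI1 is a calcium channel of the plasma membrane, and its human cDNA was placed in the Thy1.2 expression cassette, which drives expression in neurons. Both groups were on the FVB/NJ background and were 7 months old. There were 3 mice in each group, and each library came from the hippocampus of 1 mouse.

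The libraries held between 37414241 and 52497799 counts. Orai1 was measured at 7.18, 7.16 and 8.08 CPM in the wild-type libraries and at 313, 331 and 316 CPM in the transgenic libraries, which matched the labels. CPM are counts relative to the TMM-scaled library total. The p-values given come from the quasi-likelihood test of edgeR, are adjusted by Benjamini and Hochberg's method over all 19087 genes, and measure the spread between these mice. An exact two-sided permutation test of 3 mice against 3 cannot go below 0.1. RNA of a whole hippocampus cannot tell fewer cells of a type from less RNA per cell.

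RFX factors bind a pair of inverted short sites, the X-box, near the start of many cilia genes. RefSeq promoter windows of the GRCm38.p6 assembly, from 250 bases before the start to 50 after it, were matched for 38 of the 44 genes, and Cfap54, Cfap65, Dnaaf1, Foxj1, Rsph1 and Rsph4a had no entry. The letters GTTNCC followed by GNAAC after 2 or 3 further bases, searched on both strands, were present in 13 of the 38 genes, 34.2%, against 461 of 27025 genes with a promoter entry, 1.71%. The single site GTTGCC, which can lie inside the pair, was present in 17 of 38, 44.7%, against 14.1% of all genes. The forkhead letters TGTTTAC were present in 3 of 38, 7.89%, against 4.05%. The 150 bases before the start are printed for 4 genes, with the pair in capitals, because Spag16, Cfap44 and Hydin are the 3 holders of the pair with an adjusted p under 0.05 and Ccdc151 is the gene with the highest fold change. They are chr16:44394649-44394798 on the plus strand for Cfap44, chr8:110266827-110266976 on the plus strand for Hydin, chr1:69826820-69826969 on the plus strand for Spag16 and chr9:22002635-22002784 on the minus strand for Ccdc151.
Cfap44: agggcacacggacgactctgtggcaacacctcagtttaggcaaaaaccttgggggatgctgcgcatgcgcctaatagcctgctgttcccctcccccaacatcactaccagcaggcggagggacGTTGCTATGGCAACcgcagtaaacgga
Hydin: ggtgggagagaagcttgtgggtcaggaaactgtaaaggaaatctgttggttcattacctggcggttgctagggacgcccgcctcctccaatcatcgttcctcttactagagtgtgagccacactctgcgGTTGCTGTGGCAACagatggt
Spag16: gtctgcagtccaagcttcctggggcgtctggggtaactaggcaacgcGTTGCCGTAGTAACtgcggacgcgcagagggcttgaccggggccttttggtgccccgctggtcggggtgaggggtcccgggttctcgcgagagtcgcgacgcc
Ccdc151: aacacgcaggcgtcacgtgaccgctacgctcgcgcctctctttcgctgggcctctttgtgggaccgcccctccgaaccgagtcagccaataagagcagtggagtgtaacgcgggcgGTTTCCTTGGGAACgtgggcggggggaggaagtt

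The pair began 27 bases before the start in Cfap44, 21 in Hydin, 103 in Spag16 and 34 in Ccdc151. Among the 13 holders of the pair, 3 had an adjusted p under 0.05, all lower in transgenic hippocampi, and their median log2 fold change was -0.53. Of the 25 without it, 8 had an adjusted p under 0.05, and their median was -0.55.

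Compared with the wild-type, 12 of the 44 genes were lower in transgenic hippocampi with an adjusted p under 0.05 and none was higher. That is 27.3% of the genes, where 4.0% of all tested genes were lower, 3.10% higher and 7.10% changed in either direction. The 12 were Lrrc23, Dnah11, Ccdc114, Ccdc39, Ccdc113, Cfap43, Cfap44, Hydin, Spag16, Cfap52, Cfap65 and Mlf1. DESeq2's Wald test called 18 of the 44 genes, these 12 and Foxj1, Rsph1, Rsph4a, Dnah6, Tekt1 and Cfap126. All 18 were lower, and the same test called 2230 of all 19087 genes, 1175 of them lower. The median log2 fold change of the 44 was -0.56 with a range from -1.28 to 0.16, and the median of all tested genes was -0.01. At an unadjusted p under 0.05, 27 of the 44 genes were lower and none was higher, where 14.8% of all tested genes were lower. In 25 of the 44 every transgenic value lay below every wild-type value, a larger share than the 17.9% of all tested genes. In 2 of the 44 every transgenic value lay above, a smaller share than 16.9%. The groups overlapped in the other 17. In one direction or the other, 27 of the 44 did not overlap, a larger share than the 34.9% of all tested genes. The log2 fold change was below 0 in 39 of the 44 genes and in 51.7% of all tested genes.

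**Figure D1:**
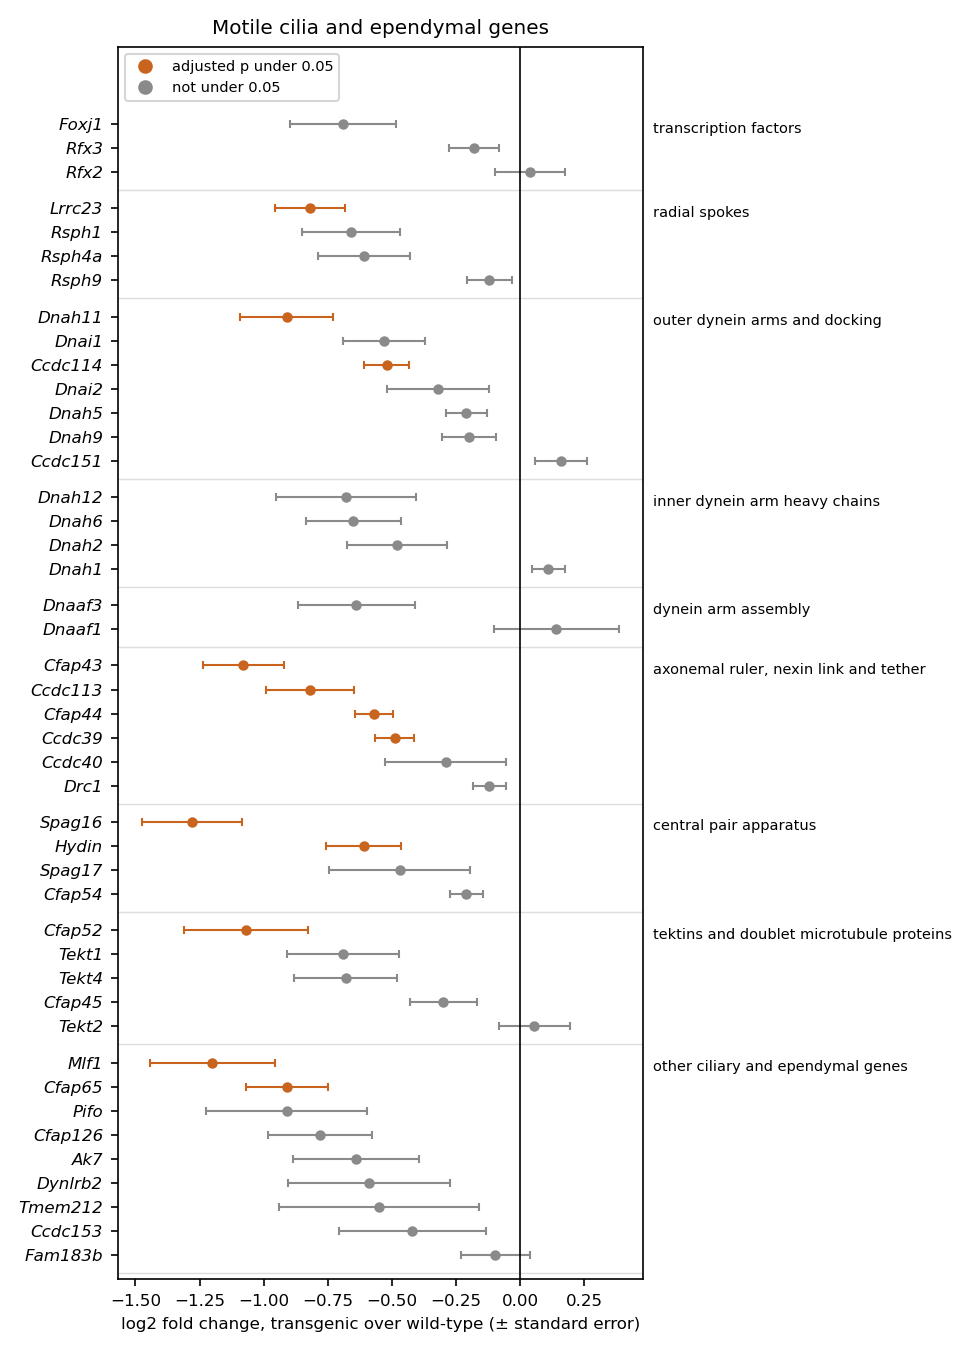
The points give the log2 fold change of each of the 44 genes, transgenic over wild-type, with its standard error from edgeR, grouped by role in the cilium, and orange marks the 12 genes with an adjusted p under 0.05. All 12 lie left of 0, and 5 genes in grey lie right of it, up to 0.16 for Ccdc151.

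The number of calls depended on which mice were in the fit. With wild-type 1, wild-type 2, transgenic 2 or transgenic 3 left out, no cilia gene passed the adjusted threshold in edgeR. At an unadjusted p under 0.05 stood 22, 19, 21 and 21 of the 44. These were larger shares than the 18.4%, 19.9%, 23.9% and 22.3% of all tested genes in the same fits. In the same order 77, 94, 192 and 108 genes were called among all tested, in place of 1355. Without wild-type 3, 11 of the 44 were called, and without transgenic 1, 15, all of them lower. Among all tested genes, 1031 of 19536 were called without wild-type 3, 635 of them lower. Without transgenic 1 it was 1149 of 19382, 683 of them lower. All 12 genes stayed below 0 in each fit with a mouse left out. Since their groups did not overlap, leaving out a mouse could hardly have turned a sign, so this is no check of the calls.

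Transcript GC content was set beside the calls, and its part in the fold changes was examined only through offsets. The median GC content was 47.9% in the 12 genes, 51.3% in the other 32 and 49.5% in all tested genes. With offsets that took out the dependence of counts on GC content library by library, 6 genes kept an adjusted p under 0.05, where 1.59% of all tested genes were lower and 0.707% higher. They were Lrrc23, Ccdc114, Cfap43, Cfap44, Spag16 and Cfap65. The median log2 fold change of the 44 was then -0.54.

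None of the 3 transcription factors of motile ciliogenesis passed edgeR's test. Foxj1, which commits a cell to motile cilia, was measured at 13.4, 18.7 and 13.0 CPM in the wild-type libraries and at 12, 8.33 and 7.48 CPM in the transgenic libraries. The groups did not overlap, but transgenic 1 lay close to the lowest wild-type mouse, and the log2 fold change of -0.69 ± 0.21 (SE) had an adjusted p of 0.0826. Its adjusted p was 0.0132 with DESeq2's Wald test, 0.0304 with no filter on low counts and 0.0356 without transgenic 1. Rfx2 stood at 4.64, 5.83 and 5.18 CPM in the wild-type libraries and at 6.13, 4.95 and 4.94 CPM in the transgenic libraries. The groups overlapped, with a log2 fold change of 0.04 ± 0.14 (adjusted p = 0.889) whose sign turned with the GC offsets. Rfx3, which is also active in cells with a primary cilium, had by far the highest CPM of the 44 and made up 21.3% of their summed CPM in the wild-type. Its values were 119.6, 122 and 118 CPM in the wild-type libraries and 91.4, 104 and 123 CPM in the transgenic libraries. Transgenic 3 was the highest of the 6, and the log2 fold change of -0.18 ± 0.10 had an adjusted p of 0.287. The log2 fold change of Rfx3 was -0.0273 with GC offsets and -0.0837 with gene length offsets. It was -0.0795 without transgenic 1 and -0.28 without transgenic 3.

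Of the 4 radial spoke genes, Lrrc23 was lower and the 3 spoke head genes did not pass edgeR's test. Lrrc23 (ENSMUSG00000030125, chr6:124769863-124779727, minus strand), a spoke protein with leucine-rich repeats, was measured at 8.98, 10.2 and 8.74 CPM in the wild-type and at 6.09, 5.37 and 4.35 CPM in the transgenic libraries. The transgenic values lay clear of the wild-type values and averaged 43.2% below them (log2 fold change -0.82 ± 0.14, adjusted p = 0.0254). Rsph1 gave 8.69, 12.4 and 7.58 CPM in the wild-type and 6.95, 5.74 and 5.45 CPM in transgenic mice. Its groups did not overlap, but wild-type 2 stood apart from the other wild-type mice (log2 fold change -0.66 ± 0.19, adjusted p = 0.0773). Rsph9, of the same spoke head, stood at 12.9, 12.4 and 12.1 CPM against 11.3, 10.4 and 12.6 CPM. It varied little between wild-type mice and overlapped between genotypes (log2 fold change -0.12 ± 0.09, adjusted p = 0.396). Rsph4a had a log2 fold change of -0.61 (adjusted p = 0.0781). Of 17 other settings, 2 called Rsph1 and 3 called Rsph4a.

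The outer dynein arms gave 2 of 7 genes lower. Dnah11 (ENSMUSG00000018581, chr12:117877982-118199043, minus strand), an outer arm heavy chain, was measured at 8.56, 7.25 and 5.76 CPM in the wild-type and at 4.52, 3.70 and 3.26 CPM in the transgenic libraries. The fall was 46.8% (log2 fold change -0.91 ± 0.18, adjusted p = 0.0342). The other outer arm heavy chains did not pass: Dnah5 had a log2 fold change of -0.21 (adjusted p = 0.132) and Dnah9 one of -0.20 (adjusted p = 0.257). Of the intermediate chains, Dnai1 had -0.53 (adjusted p = 0.0844) and Dnai2 had -0.32 (adjusted p = 0.338). Ccdc114 (ENSMUSG00000040189, chr7:45924072-45948963, plus strand), of the complex that docks outer arms on the doublet, stood at 8.35, 9.29 and 8.45 CPM against 6.22, 6.08 and 5.93 CPM. The transgenic mice were close together, 30.1% below the wild-type (log2 fold change -0.52 ± 0.09, adjusted p = 0.0260). Ccdc151, of the same docking complex, went the other way in direction without passing. It gave 5.58, 5.43 and 5.20 CPM in the wild-type and 6.54, 5.90 and 5.69 CPM in transgenic mice. Its log2 fold change of 0.16 ± 0.10, the highest of the 44, had an adjusted p of 0.339.

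None of the 4 inner arm heavy chains had an adjusted p under 0.05 in edgeR's test of all 6 libraries with low counts filtered and no block. Their log2 fold changes were 0.11 for Dnah1, -0.48 for Dnah2, -0.65 for Dnah6 and -0.68 for Dnah12, and the smallest adjusted p was 0.0761, for Dnah6, which was called in 5 of 17 other settings. Dynein arms are put together in the cytoplasm with the help of assembly factors, and neither of those listed passed. Dnaaf1, the gene with the lowest level of the 44, was measured at 0.497, 0.711 and 0.713 CPM in the wild-type and at 0.729, 0.812 and 0.561 CPM in the transgenic libraries. The groups overlapped (log2 fold change 0.14 ± 0.24, adjusted p = 0.742). Dnaaf3 had -0.64 (adjusted p = 0.121), and 3.87% of its exonic bases are shared with a gene on the same strand.

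The genes of the axonemal ruler, the nexin link and the inner arm tether gave 4 of 6 lower, and 2 of 6 with the GC offsets, Cfap43 and Cfap44. Cfap43 (ENSMUSG00000044948, chr19:47736857-47919287, minus strand), of the complex that tethers inner arm dyneins, was measured at 13.5, 15.7 and 11.3 CPM in the wild-type and at 7.40, 6.39 and 5.31 CPM in the transgenic libraries. The highest transgenic mouse was well under the lowest wild-type mouse, and the mean fell by 52.8% (log2 fold change -1.08 ± 0.16, adjusted p = 0.0176). Overlapping genes share 2.32% of its exonic bases. Its partner Cfap44 (ENSMUSG00000071550, chr16:44394796-44482428, plus strand) stood at 27.9, 27.1 and 23.6 CPM against 18.1, 17.8 and 17.2 CPM. This was the gene with the smallest adjusted p of the 44 (0.0134), at a log2 fold change of -0.57 ± 0.08.

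Ccdc39 (ENSMUSG00000027676, chr3:33812362-33844310, minus strand) forms the molecular ruler that spaces the axonemal complexes together with Ccdc40. Its values were 49.3, 46.4 and 40.9 CPM in the wild-type and 31.7, 33.9 and 31.7 CPM in transgenic mice. They averaged 28.8% lower (log2 fold change -0.49 ± 0.08, adjusted p = 0.0198), and with the GC offsets the log2 fold change was -0.33. Ccdc40 itself overlapped between genotypes (log2 fold change -0.29, adjusted p = 0.463). Ccdc113 (ENSMUSG00000036598, chr8:95534085-95558890, plus strand), a coiled-coil protein of the axoneme, gave 3.29, 3.93 and 2.91 CPM against 2.21, 1.78 and 1.71 CPM. That was 43.5% lower (log2 fold change -0.82 ± 0.17, adjusted p = 0.0371). Drc1, of the nexin link, stayed within a narrow range, at 14.9, 15.1 and 15.5 CPM in the wild-type and 14.5, 13.8 and 13.6 CPM in transgenic mice (log2 fold change -0.12 ± 0.06, adjusted p = 0.260).

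Among the 4 central pair genes, Spag16 and Hydin were lower. Spag16 (ENSMUSG00000053153, chr1:69826970-70725132, plus strand) had the largest fall of the 44 genes. It was measured at 3.86, 4.88 and 3.36 CPM in the wild-type libraries and at 1.93, 1.68 and 1.36 CPM in the transgenic libraries. The mean was 58.8% lower (log2 fold change -1.28 ± 0.20, adjusted p = 0.0198). Hydin (ENSMUSG00000059854, chr8:110266977-110610253, plus strand), whose loss leads to hydrocephalus in mice, stood at 7.95, 9.24 and 8.06 CPM against 6.58, 5.27 and 4.59 CPM. Its call was the closest to the threshold (log2 fold change -0.61 ± 0.15, adjusted p = 0.0487) and was made in only 6 of 17 other settings. Spag17 had a log2 fold change of -0.47 (adjusted p = 0.309) and Cfap54 one of -0.21 (adjusted p = 0.0873).

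Tektins and other proteins of the doublet wall gave 1 call in 5. Cfap52 (ENSMUSG00000020904, chr11:67924806-67965651, minus strand), a protein inside the doublet, was measured at 2.45, 3.63 and 2.93 CPM in the wild-type and at 1.89, 1.13 and 1.23 CPM in transgenic mice. The mean fell by 52.4% (log2 fold change -1.07 ± 0.24, adjusted p = 0.0444). Tekt1 and Tekt4 had log2 fold changes of -0.69 and -0.68, with adjusted p-values of 0.0939 and 0.0773. Tekt2 was the other gene whose transgenic values all lay above the wild-type values, by a narrow margin, at 1.47, 1.52 and 1.53 CPM against 1.54, 1.57 and 1.58 CPM. Its adjusted p was 0.835, and with the GC offsets its log2 fold change turned from 0.05 to -0.03. Cfap45 had -0.30 (adjusted p = 0.183).

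**Figure D2:**
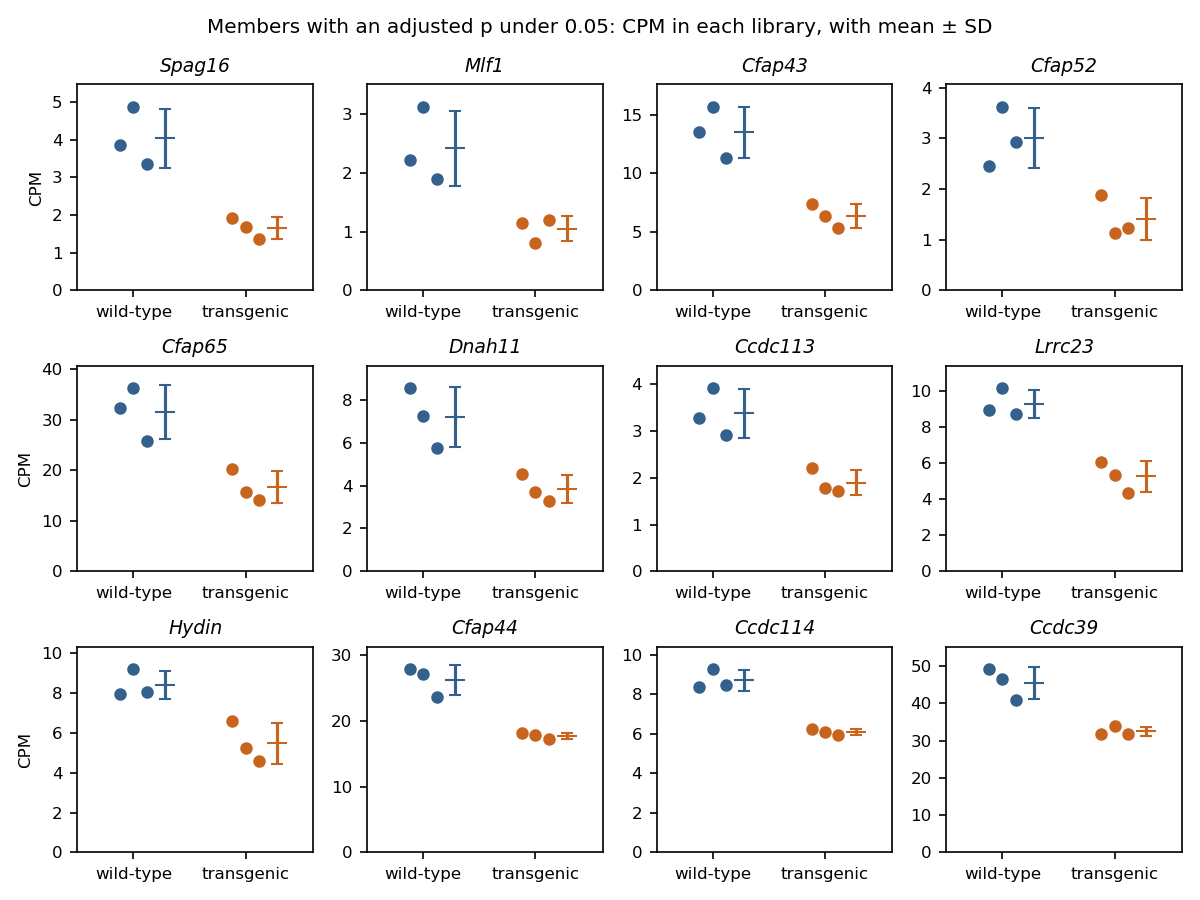
Each panel shows 1 of the 12 genes with an adjusted p under 0.05, with the CPM of the 3 wild-type mice in blue, those of the 3 transgenic mice in orange, and mean ± SD beside them. In every panel the transgenic points lie below the wild-type points, with 1.93 CPM at most against 3.36 CPM at least for Spag16 and 33.9 CPM at most against 40.9 CPM at least for Ccdc39.

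Of the remaining 9 genes, 2 were lower. Cfap65 (ENSMUSG00000047021, chr1:74902071-74935599, minus strand), a cilium and flagellum protein, gave 32.3, 36.4 and 25.9 CPM in the wild-type and 20.2, 15.8 and 14.2 CPM in transgenic mice. The mean was 46.9% lower (log2 fold change -0.91 ± 0.16, adjusted p = 0.0264). Mlf1 (ENSMUSG00000048416, chr3:67374097-67400003, plus strand) stood at 2.22, 3.13 and 1.90 CPM against 1.14, 0.812 and 1.20 CPM. The fall of 56.4% (log2 fold change -1.20 ± 0.24, adjusted p = 0.0352) was the second in size of the 44. Cfap126 missed the threshold (log2 fold change -0.78, adjusted p = 0.0599), as did Pifo (-0.91, adjusted p = 0.112) and Ak7 (-0.64, adjusted p = 0.140).

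The rest of this group, Fam183b, Tmem212, Dynlrb2 and Ccdc153, did not pass edgeR's test. Fam183b was measured at 3.88, 4.48 and 3.65 CPM in the wild-type and at 4.07, 3.77 and 3.37 CPM in transgenic mice, and the groups overlapped (log2 fold change -0.10 ± 0.13, adjusted p = 0.682). Tmem212, Dynlrb2 and Ccdc153 had log2 fold changes of -0.55, -0.59 and -0.42, with adjusted p-values of 0.401, 0.268 and 0.379. Their standard errors were wide, 0.390, 0.315 and 0.286. With 1 mouse left out, Tmem212 ranged from -1.05 without transgenic 1 to -0.22 without transgenic 3, Dynlrb2 from -0.88 to -0.30 without the same mice, and Ccdc153 from -0.62 without wild-type 3 to -0.01 without wild-type 2. A further list of 13 ependymal genes outside the axoneme gave 11 tested genes, none of them with an adjusted p under 0.05 by edgeR or by DESeq2. At an unadjusted p under 0.05 by edgeR, 3 of the 11 were lower, a larger share than the 14.8% of all tested genes. The 11 had a median log2 fold change of -0.28. Summed CPM of the list overlapped between genotypes, at 81.7 to 103 in the wild-type and 82.5 to 103 in transgenic mice.

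To compare levels between genes, counts were divided by exonic length and library total (FPKM). In the wild-type the 44 genes lay between 0.227 FPKM for Dnaaf1 and 10.9 FPKM for Rfx3, with a median of 1.92, and 14 were under 1 FPKM. Rsph1 at 8.21 ± 2.15 (SD, n = 3), Rsph9 at 7.78 ± 0.21, Fam183b at 7.06 ± 0.76 and Ccdc39 at 6.12 ± 0.55 FPKM followed Rfx3, and of these the first 3 lay within their spread of each other. Next came Foxj1 at 5.72 ± 1.21, Drc1 at 5.65 ± 0.12 and Lrrc23 at 5.36 ± 0.44 FPKM, which did not differ beyond their spread. Of these 8, Ccdc39 and Lrrc23 were lower in transgenic hippocampi with an adjusted p under 0.05. At the low end, 16 genes had under 100 counts in some library, with a lowest count of 21, so that counting adds to the spread there.

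**Figure D3:**
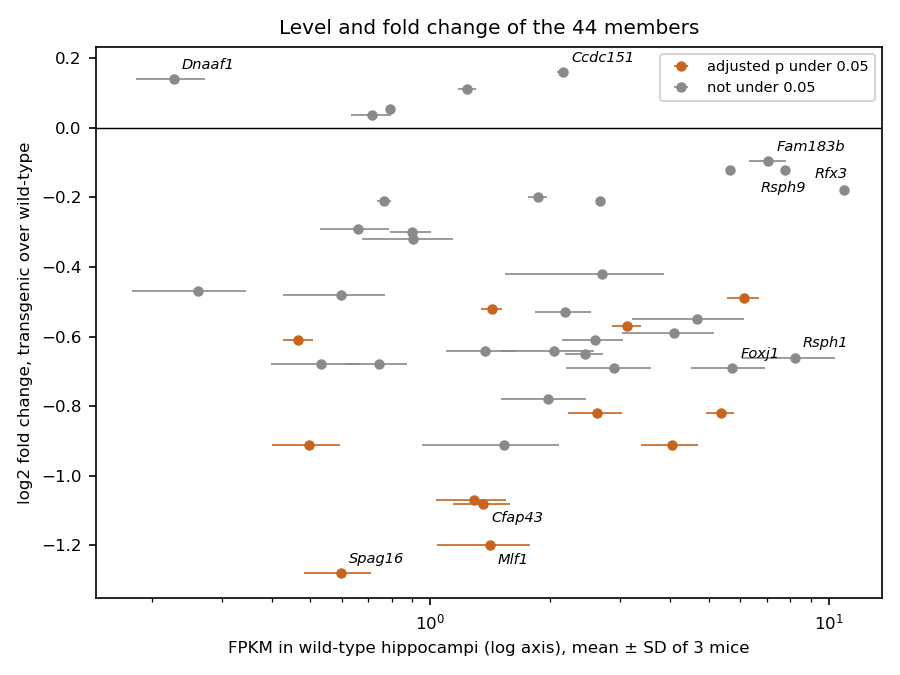
The log2 fold change of each of the 44 genes is plotted against its wild-type FPKM on a log axis, with bars for the SD of 3 mice, and orange marks an adjusted p under 0.05. The orange points run from 0.467 FPKM for Hydin to 6.12 FPKM for Ccdc39, and the highest gene, Rfx3 at 10.9 FPKM, is not among them.

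The 44 genes largely shared an order of mice within each genotype. Wild-type 2 was the highest wild-type library in 33 of the 44 genes, and wild-type 3 the lowest in 29. Transgenic 1 was the highest transgenic library in 34 genes, and transgenic 3 the lowest in 33. The median SD of log2 CPM between mice was 0.25 in the wild-type and 0.22 in transgenic mice. It was 0.09 and 0.11 over the 14594 of 19087 tested genes that lay between the lowest and highest mean CPM of the 44. Those genes were not matched to the 44 in level within that range. Summed over the 44 genes, the wild-type libraries gave 559, 609.7 and 517 CPM and the transgenic libraries 446, 418 and 419 CPM. The groups did not overlap, and the ratio of the means was 0.761.

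The epithelium of the choroid plexus also carries motile cilia and lies against the hippocampus, and its markers moved with the result. Of 20 listed choroid plexus genes, 18 were lower in transgenic hippocampi with an adjusted p under 0.05 and none was higher, with a median log2 fold change of -2.65. The 20 genes summed to between 2607.8 and 4570.6 CPM in the wild-type libraries and to between 319 and 513 CPM in the transgenic ones, and none of the 20 was at 0 counts in any library. Ttr, the thyroxine carrier that this epithelium secretes, was measured at 3505.5, 3889.6 and 2042.1 CPM in the wild-type and at 383, 179 and 301 CPM in transgenic mice (log2 fold change -3.45 ± 0.34, adjusted p = 0.00472). Kl had a log2 fold change of -2.28, Folr1 of -2.92 and Kcne2 of -3.36, with adjusted p-values of 0.00129, 0.00141 and 0.000231. The authors also measured Kl, Folr1 and Kcne2 by real-time PCR in hippocampi of mice of other ages. Each averaged lower in transgenic mice there, and none passed 0.05 by Tukey's test. For both lists the summed CPM of every transgenic library was below that of every wild-type library. Gene by gene, wild-type 1 was highest of the wild-type in 11 and wild-type 2 in 8 of the 20 choroid plexus genes, and wild-type 3 was lowest in 17. Transgenic 1 was highest of the transgenic mice in 13 of the 20, and the lowest was transgenic 1 in 6, transgenic 2 in 10 and transgenic 3 in 4. With 1 mouse left out in turn, 15 to 19 of the 20 were called. The part of choroid plexus tissue in the fall of the cilia genes was not tested.

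**Figure D4:**
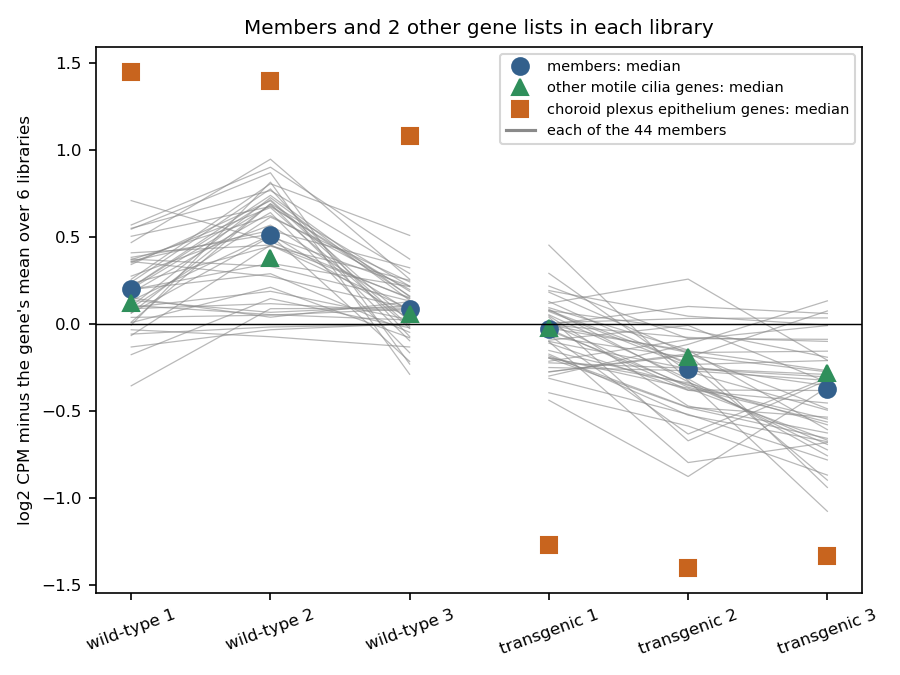
For each library the grey lines give the log2 CPM of each of the 44 genes minus its mean over the 6 libraries, and the symbols give the median over the 44 genes, over 85 other motile cilia genes and over 20 choroid plexus genes. The median of the 44 was 0.20, 0.51 and 0.09 in wild-type 1 to 3 and -0.03, -0.26 and -0.37 in transgenic 1 to 3, while that of the choroid plexus genes lay between 1.08 and 1.45 and between -1.40 and -1.27.

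Further genes of the motile cilium were counted for comparison. A list of 89 further genes had 88 in the table and 85 tested. Of these, 15 were lower and 1 was higher with an adjusted p under 0.05, against 4.0% and 3.10% of all tested genes, and their median log2 fold change was -0.38. Drc7, of the nexin link, was measured at 16.2, 17.7 and 12.2 CPM in the wild-type and at 5.92, 3.54 and 3.71 CPM in transgenic mice, a fall of 71.3% (log2 fold change -1.80 ± 0.22, adjusted p = 0.0106). The inner arm heavy chain gene Dnah7b had a log2 fold change of -0.65 (adjusted p = 0.0114), though reads may be split with its near-identical copies. Cfap61, of a radial spoke complex, had -1.14 (adjusted p = 0.0150), and Wdr78, an inner arm intermediate chain, had -0.60 (adjusted p = 0.0168). Gmnc, which acts before Foxj1 in the making of multiciliated cells, was chosen after its values were seen and had -1.78 (adjusted p = 0.0340). The 1 higher gene, also named after its values were seen, was Gas8 of the nexin link, at 27.8, 28.0 and 28.2 CPM against 33.0, 31.4 and 32.9 CPM (log2 fold change 0.21 ± 0.05, adjusted p = 0.0446). With the GC offsets 5 of the 85 genes were called, all lower. Leaving out wild-type 1, wild-type 2 or transgenic 3 left none with an adjusted p under 0.05 by edgeR, and leaving out transgenic 2 left 2.

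Genes shared with the primary cilium were counted next, where 4.0% of all tested genes were lower. Of 41 genes of intraflagellar transport and the BBSome, which carry cargo in both kinds of cilia, Wdr35 and Bbs7 were lower, 4.88% of the list, with log2 fold changes of -0.25 and -0.22 and adjusted p-values of 0.0406 and 0.0440. At an unadjusted p under 0.05, 16 of the 41 differed and 11 of the 41 were lower. Both were larger shares than the 27.8% and 14.8% of all tested genes. In 17 of the 41 every transgenic value lay below every wild-type value, a larger share than the 17.9% of all tested genes. In 6 of the 41 every transgenic value lay above, a smaller share than 16.9%. The median of the 41 was -0.07, and with the GC offsets none was called. Of 14 genes of the primary cilium, Rpgrip1l of the transition zone was lower, 7.14% of the list (log2 fold change -0.22, adjusted p = 0.0493), the median was -0.02, and again none was called with the GC offsets. With 1 mouse left out, Rpgrip1l was not called in any fit, and none of the 41 was called without wild-type 1, wild-type 2, transgenic 2 or transgenic 3. The summed CPM of the 14 were 423 to 446 in the wild-type and 413 to 475 in transgenic mice, which overlapped. Whether the lists differ from each other was not tested, and these counts and medians are descriptions.

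**Figure D5:**
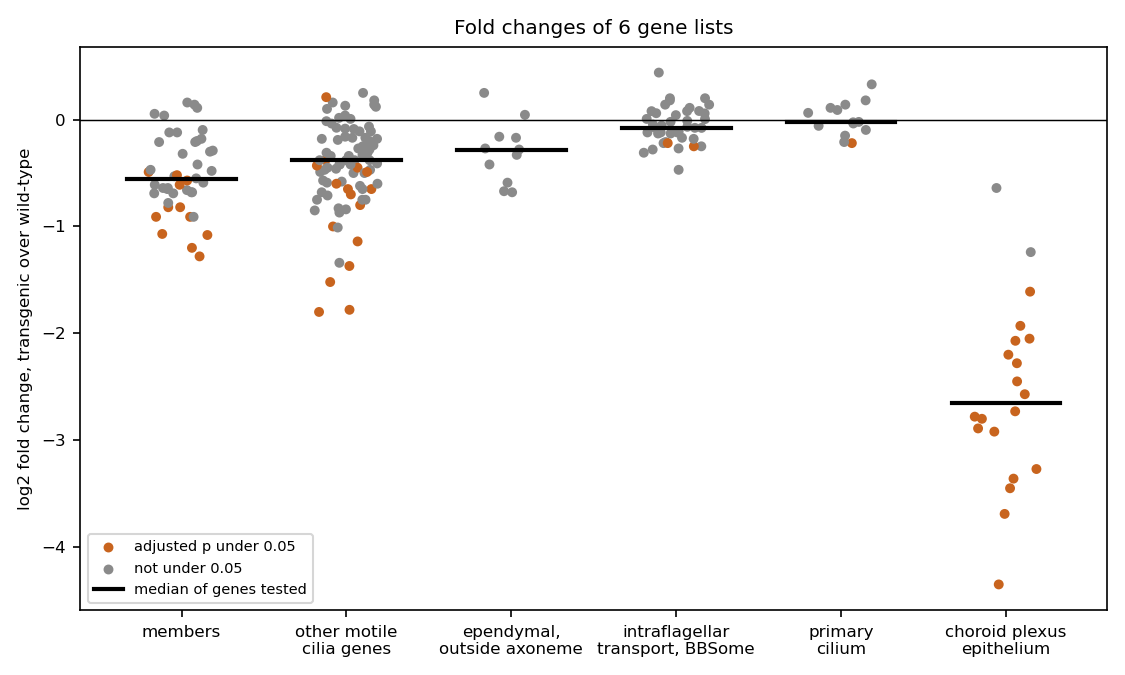
Each point is the log2 fold change of 1 gene, transgenic over wild-type, in 6 gene lists, with a bar at the median and orange for an adjusted p under 0.05. The medians were -0.56 for the 44 genes, -0.38 for other motile cilia genes, -0.28 for ependymal genes outside the axoneme, -0.07 for intraflagellar transport and BBSome genes, -0.02 for primary cilium genes and -2.65 for choroid plexus genes.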

How the data were processed

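Hippocampal polyA RNA of 3 wild-type and 3 transgenic females was sequenced, 1 library per mouse. The authors trimmed reads with Trimmomatic, aligned them to mm10 with STAR (versions not given in the sources used here) and counted fragments with featureCounts 1.5.0-p1. The deposited values are raw counts per gene and library on the Ensembl 95 annotation, strand kept (setting 2), primary alignments, mapping quality at least 3. Symbols and positions came from GENCODE M21 on GRCm38, in which Dnai1 and Dnai2 are named Dnaic1 and Dnaic2.

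From these counts, edgeR 4.0.16 in R 4.3.3 (filterByExpr with minimum count 10, TMM, quasi-likelihood test, 6 libraries, no covariate) compared genotypes, with Benjamini-Hochberg adjustment and a threshold of 0.05. FPKM used the deposited gene lengths and library totals. For spreads and deviations 0.1 CPM was added before taking log2. GC and length offsets came from loess curves (span 0.5) over genes with a mean log2 CPM above 1. DESeq2 1.42.0, limma 3.58.1, other scalings, other filters, offsets, a replicate block and each mouse left out were alternatives. The fits were also run on simulated counts with a fixed dispersion. Those counts held no GC trend and no shared order of mice, so they do not test the fits against these. Python 3.11.15 with numpy 2.4.6, pandas 2.3.3 and matplotlib 3.10.9 made tables and plots. The study's own test, NOISeq, was not repeated.

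The 44 genes, the other lists, the roles and the motifs were chosen with earlier results of these data known. Values per library are given for genes with an adjusted p under 0.05, the 8 of highest FPKM, the 3 transcription factors, and the 2 of largest fold change in each direction. From other lists at most the 4 genes of smallest p were named, with Ttr, Kl, Folr1 and Kcne2 for the choroid plexus. Gmnc, Gas8, Tekt2 and the values of the remaining cilia genes stand outside this rule and were chosen after their values were seen. Depth was 37414241 to 52497799 counts per library.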

Additional observations from a re-analysis of the deposited data

How the results depend on the processing

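In place of 12, the 44 cilia genes gave 6 calls with GC offsets, 18 with DESeq2's Wald test, 17 with no filter and 0 to 15 with 1 mouse left out. The median of the 44 stayed between -0.68 and -0.40 with 1 mouse left out and between -0.59 and -0.52 otherwise. The 12 called genes stayed below 0 in all 17 other settings, which is no check of them, since their groups did not overlap. All tested genes gave 1355 calls, 591 higher and 764 lower, 2230 with DESeq2's Wald test, 439 with GC offsets (135 higher and 304 lower), 825 with gene length offsets and 77 to 1149 with 1 mouse left out. The other motile cilia genes gave 5 in place of 16 with GC offsets and 0 to 15 with 1 mouse left out. Intraflagellar transport and BBSome genes gave 5 in place of 2 with DESeq2's Wald test, 0 with DESeq2's size factors, GC offsets, gene length offsets or no filter, and 0 to 3 with 1 mouse left out. Primary cilium genes gave 0 in place of 1 with DESeq2's size factors, GC offsets, gene length offsets, limma-voom, no filter, at least 10 counts in every library, the upper quartile or any mouse left out. Signs turned for Rfx2 (-0.0447 with GC offsets, -0.0253 without wild-type 1 and -0.074 to 0.14 over all mice left out), Fam183b (-0.16 to 0.00778) Dnaaf1 (-0.00541 to 0.30) and Tekt2 (-0.03 with GC offsets, and also below 0 with gene length offsets), none of them called. Fits without a mouse have fewer samples, and the cause of the other shifts was not tested.

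Same-numbered mice did not always deviate together: their deviations correlated at 0.399, -0.357 and 0.388 over 11191 genes, and wild-type 2 and 3 correlated best with other numbers. Deviations were taken from the mean of each genotype, so these correlations depend on each other and cannot tell whether the numbers pair the mice. With the number as a replicate block, 9 of the 44 genes were called, 8 of them among the 12, with 738 of all tested genes, 1 intraflagellar transport or BBSome gene, which was higher and neither Wdr35 nor Bbs7, and 0 primary cilium genes. GC offsets with the replicate block gave 424 of all tested genes, 8 of the 44, 7 of them among the 12, 6 other motile cilia genes, 0 intraflagellar transport or BBSome genes, 0 primary cilium genes and -0.0431 for Rfx2.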

Other observations

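Markers of neurons and astrocytes were read in the same libraries. Of 10 neuronal genes, 1 was higher and 1 lower in transgenic hippocampi with an adjusted p under 0.05 by edgeR, against 3.10% and 4.0% of all tested genes. Log2 fold changes were below 0 in 5 and above 0 in 5, and summed CPM overlapped between genotypes. Slc17a7, the vesicular glutamate transporter of excitatory neurons, was higher (log2 fold change 0.26 ± 0.05, adjusted p = 0.0356 by edgeR). Gad2, an enzyme of GABA synthesis, was lower (-0.52 ± 0.09, adjusted p = 0.0272 by edgeR). With GC offsets the adjusted p-values of Slc17a7 and Gad2 were 0.116 and 0.0634. Slc17a7 passed in 1 and Gad2 in 2 of the 6 fits with 1 mouse left out. Gad2 stood at 196, 182 and 155 CPM in the wild-type and at 131, 127 and 115 CPM in transgenic mice. None of 6 astrocyte genes had an adjusted p or an unadjusted p under 0.05 by edgeR. Gfap, the intermediate filament of astrocytes, differed between mice of 1 genotype more than between genotypes, at 323, 355 and 836 CPM in the wild-type and at 386, 922 and 839.8 CPM in transgenic mice (log2 fold change 0.50 ± 0.43, adjusted p = 0.490). The 3 libraries with the higher Gfap were wild-type 3, transgenic 2 and transgenic 3.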
